A study of Mus musculus with 6 samples.

Results

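The Arp2/3 complex is described here through the 9 genes that encode its subunits in the deposited tables: Actr2, Actr3, Arpc1a, Arpc1b, Arpc2, Arpc3, Arpc4, Arpc5 and Arpc5l. They were taken by gene symbol, and each symbol matched 1 locus among the 23746 loci of all 6 tables. RNA was sequenced from bone marrow of C57BL/6 mice aged 12 weeks that carried both copies (WT), 1 copy (Diap1 +/-, called Het) or no copy (Diap1 -/-, called KO) of Diap1, the formin mDia1. For every genotype the marrow of 4 mice was combined. Cells bearing both Gr1 and Mac1, surface antigens of granulocytes and monocytes, were pulled out with magnetic beads, and the rest was depleted to a Lin- progenitor fraction. This gave 6 libraries, 1 for each genotype and fraction. The sources used here do not say how the Diap1 allele was made or which sex the mice were.

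Arp2/3 starts new actin filaments as side branches on existing ones and so builds the sheet-like networks behind crawling and phagocytosis. It is silent until bound by an activator of the WASP or WAVE family, which in turn answer to Rac and Cdc42. Formins such as mDia1 start unbranched filaments and draw on the same actin monomers. The complex has 7 positions: Arp2 and Arp3, which mimic a pair of actin subunits, and ArpC1 to ArpC5, which hold them and bind the mother filament. In mammals ArpC1 is either Arpc1a or Arpc1b and ArpC5 either Arpc5 or Arpc5l, so a cell can build complexes of different makeup. Loss of ARPC1B in people causes an inherited immune deficiency.

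The results turn on these paralogue pairs, and their coding sequences show how well short fragments can be assigned to each gene. Arpc1a (chromosome 5, 145083869 to 145108756, mm10) and Arpc1b (chromosome 5, 145114256 to 145128186) are neighbours, 5.50 kb apart. Their coding sequences, 1110 and 1128 bases in GENCODE M21, are 72.7% identical over 1104 aligned bases, and the longest identical run is 21 bases. The first 120 coding bases of both are shown 5′ to 3′, with capitals at the 27 bases that differ, 13 of them at the third place of a codon.
Arpc1a: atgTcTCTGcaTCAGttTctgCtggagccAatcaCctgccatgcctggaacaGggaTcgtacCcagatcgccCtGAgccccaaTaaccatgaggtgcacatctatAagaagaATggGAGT
Arpc1b: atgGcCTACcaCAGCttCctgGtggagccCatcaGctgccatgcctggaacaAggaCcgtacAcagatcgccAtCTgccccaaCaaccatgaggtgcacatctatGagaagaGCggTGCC
Arpc5 (chromosome 1, 152766542 to 152775580) and Arpc5l (chromosome 2, 39008139 to 39015872) are 71.3% identical over 450 aligned bases, with the same longest run. In the stretch below, coding bases 94 to 213 of Arpc5 and 100 to 219 of Arpc5l, 41 of 120 bases differ, 20 of them at the third place of a codon (capitals).
Arpc5: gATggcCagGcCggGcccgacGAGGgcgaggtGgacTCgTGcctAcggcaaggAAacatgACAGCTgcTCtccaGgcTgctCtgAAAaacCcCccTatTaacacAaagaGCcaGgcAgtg
Arpc5l: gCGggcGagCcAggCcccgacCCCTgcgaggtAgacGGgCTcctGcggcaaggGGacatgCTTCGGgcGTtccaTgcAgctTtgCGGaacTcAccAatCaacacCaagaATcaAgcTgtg
No identical run between the members of a pair was longer than 21 bases. Processed pseudogenes at least 90% identical over 50% or more of the coding sequence were found for Actr2, Actr3, Arpc1b, Arpc2 and Arpc5, 1 each. None of these 5 copies has a row of its own in the deposited tables, so the treatment of fragments shared with them is unknown. Arpc4 (chromosome 6, 113378113 to 113390447) overlaps the locus of Ttll3, and fragments from the overlap cannot be assigned with certainty.

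The values are FPKM, a fragment count divided by transcript length and by library size, deposited with a lower and an upper bound that lie 2 counting standard errors (SE) from the value. Those bounds imply between 359 and 13927 fragments per member and library. They do not cover the spread between mice. Nor do they follow counts alone in every case. For Actr3 in Lin- cells they imply 1989 fragments at FPKM 98.1 in WT but 2129 at 84.8 in KO. Of the 54 member values 53 have status OK. The exception is Actr3 in KO Gr1+Mac1+ cells, with status FAIL and a lower bound of 0, so that it has no usable interval. The FPKM of Diap1 followed the order WT, Het, KO in both fractions, being 36.0, 24.2 and 6.07 in the Lin- and 57.1, 34.1 and 4.07 in the Gr1+Mac1+ libraries.

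The fractions were checked against cell type markers. Of the 8 progenitor markers, 7 had the higher mean in Lin- cells, with Kit at 66.4 to 84.7 there and 14.9 to 15.7 in Gr1+Mac1+ cells. Sfpi1, which encodes the myeloid factor PU.1, went the other way (7.55 to 14.96 against 171 to 187), and the summed FPKM of the 8 overlapped (262 to 306 against 271 to 298). The summed FPKM of 12 neutrophil genes was 135873 to 164009 in Gr1+Mac1+ libraries. In Lin- libraries it was 69.3 (WT), 83.4 (KO) and 8023 (Het), so the Het Lin- library stands apart by its neutrophil transcripts, and all 12 genes were higher there than in the other two. The Gr1+Mac1+ libraries also held more of the 8 monocyte genes (1490 to 1677, beside 45.7 to 132), 7 B lineage genes (250 to 291, beside 10.5 to 24.2) and 8 T and NK cell genes (160 to 184, beside 35.0 to 42.5). Nkg7 alone gave 129 to 151 of the T and NK cell sum in Gr1+Mac1+ cells and 26.7 to 31.8 in Lin- cells. All 8 had the higher mean in Gr1+Mac1+ cells, but the values of Cd3e, Cd3g and Cd8a overlapped between the fractions. The summed FPKM was higher in Lin- libraries for the 10 erythroid genes (2139 to 2256, beside 333 to 555), the 6 megakaryocyte genes (228 to 464, beside 39.2 to 53.3) and the 8 stromal genes (405 to 772, beside 31.1 to 48.6). Car1 alone gave 1423 to 1522 of the erythroid sum in Lin- cells, while Alas2 (16.8 to 36.4 against 90.3 to 124) and Slc4a1 (25.0 to 36.5 against 87.0 to 162) were higher in Gr1+Mac1+ cells. So were Pecam1 and Cdh5 of the stromal list. Among the Lin- libraries, Het also had the highest sum of the monocyte, B lineage, megakaryocyte and stromal genes. It lay between WT and KO for the progenitor, erythroid and T and NK cell genes. No marker of any list was at 0 in all 3 libraries of a fraction. The part of this cell mix in the differences below was not tested. In bulk RNA, fewer cells of a type and less RNA per cell cannot be told apart.

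Between the fractions, 7 of the 9 subunits were higher in Gr1+Mac1+ cells, Arpc1a was higher in Lin- cells, and Arpc5l did not pass the test. The differences ran from a 7.68-fold higher mean FPKM for Arpc1b in Gr1+Mac1+ cells to a 1.58-fold higher one for Arpc1a in Lin- cells. The comparison used limma on log2(FPKM + 1) with the pool of mice as a block and adjusted p under 0.05 over 11572 genes. Of all those genes 30.3% were higher in Gr1+Mac1+ and 51.5% in Lin- cells. The pools differ in genotype, so the p-values measure the spread over 3 unlike pools. FPKM is relative to a library's total. The median log2 ratio (Gr1+Mac1+ minus Lin-) of all genes was -0.33, and the median of the 9 subunits was 1.24. After rescaling the libraries by their median ratio, 41.2% of genes were higher in Gr1+Mac1+ and 36.4% in Lin- cells. The subunits then split 8 to 1, Arpc5l being higher in Gr1+Mac1+ cells by 0.43 (limma adjusted p = 0.00296) and Arpc1a still higher in Lin- cells, at -0.22 (adjusted p = 0.0353).

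Arp3 and Arp2 form the nucleus of the new branch. Actr3, which encodes Arp3, gave FPKM values of 98.1, 115 and 84.8 in the WT, Het and KO Lin- libraries, and 427, 393 and 466 in their Gr1+Mac1+ counterparts. All 3 Gr1+Mac1+ values lay above all Lin- values. The limma log2 ratio was 2.11 (SE 0.14, adjusted p = 0.00028), with the KO Gr1+Mac1+ value of status FAIL kept in the fit. Without the KO pool it was 1.94. Actr2, which encodes Arp2, gave 69.7, 75.1 and 72.0 in Lin- libraries, beside 174, 158 and 187 in Gr1+Mac1+ libraries. The groups again did not overlap, but its log2 ratio was smaller, 1.24 (SE 0.08).

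ArpC1 is a WD-repeat propeller at the edge of the complex. Arpc1b gave FPKM values of 48.2, 76.0 and 63.1 in the WT, Het and KO Lin- libraries, and 454, 511 and 474 in their Gr1+Mac1+ counterparts. The lowest Gr1+Mac1+ value was thus far above the highest Lin- value, and the log2 ratio of 2.94 (SE 0.11, limma adjusted p = 0.000124) was exceeded by 499 of the 11572 genes. Arpc1a, its neighbour on the chromosome, went the other way. Its Lin- values were 60.1, 67.2 and 65.4, its Gr1+Mac1+ values 41.2, 41.1 and 39.9, each in the order WT, Het, KO. No values overlapped, and the log2 ratio was -0.64 (SE 0.07, limma adjusted p = 0.000859). That is 0.31 below the median of all genes.

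Arpc2 and Arpc4 encode the pair at the core of the complex that grips the mother filament. In the same order the FPKM of Arpc2 was 120, 129 and 117 (Lin-) against 388, 364 and 412 (Gr1+Mac1+), a log2 ratio of 1.66 (SE 0.08). That of Arpc4 was 64.8, 70.6 and 67.5 against 128, 123 and 134, a log2 ratio of 0.92 (SE 0.07). Both were higher in Gr1+Mac1+ cells in 3 of 3 pools, and their mean FPKM was 3.18-fold and 1.90-fold higher. Arpc3, which contacts Arp3, was the most abundant subunit in each Lin- library. Its FPKM was 282, 287 and 297 there and 436, 413 and 449 in Gr1+Mac1+ libraries. Its log2 ratio of 0.58 (SE 0.06, limma adjusted p = 0.00105) was the smallest of the 7 that were higher in Gr1+Mac1+ cells.

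ArpC5 is a flexible subunit that ties ArpC1 to the Arp2 side. Arpc5 gave FPKM values of 69.6, 79.8 and 71.9 (Lin-) and 251, 226 and 277 (Gr1+Mac1+), listed as WT, Het, KO. The groups did not overlap, with a log2 ratio of 1.75 (SE 0.11, limma adjusted p = 0.000206). Arpc5l gave 26.9, 28.4 and 28.4 in Lin- libraries, beside 27.0, 27.4 and 29.6 in Gr1+Mac1+ libraries. These 6 values lie in 1 narrow range, and the log2 ratio was 0.00296 (SE 0.06, limma adjusted p = 0.967) on the deposited scale. Relative to the median of all genes it was 0.33 higher in Gr1+Mac1+ cells.

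**Figure D1:**
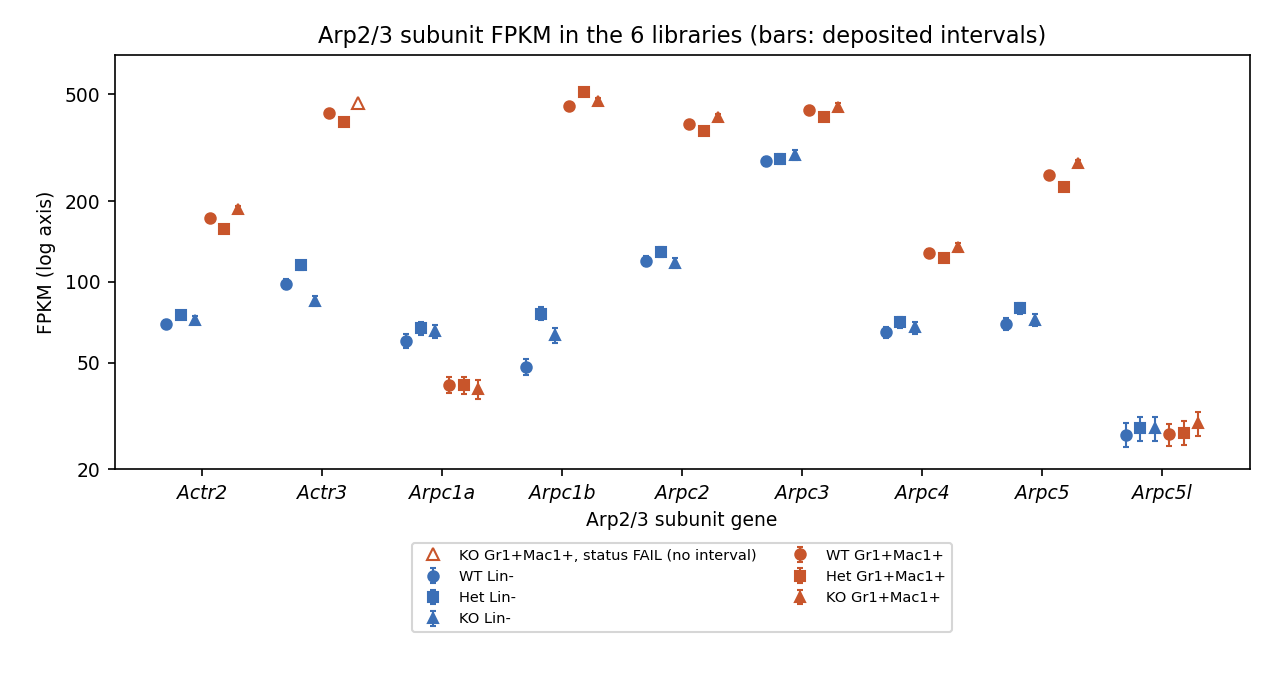
FPKM (log axis) of each subunit gene in the 6 libraries; colour marks the fraction, marker shape the genotype, bars the deposited intervals, and the open triangle the Actr3 value of status FAIL. The Gr1+Mac1+ values of Arpc1b (454 to 511) lie far above its Lin- values (48.2 to 76.0), those of Arpc1a lie below, and those of Arpc5l coincide.

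**Figure D2:**
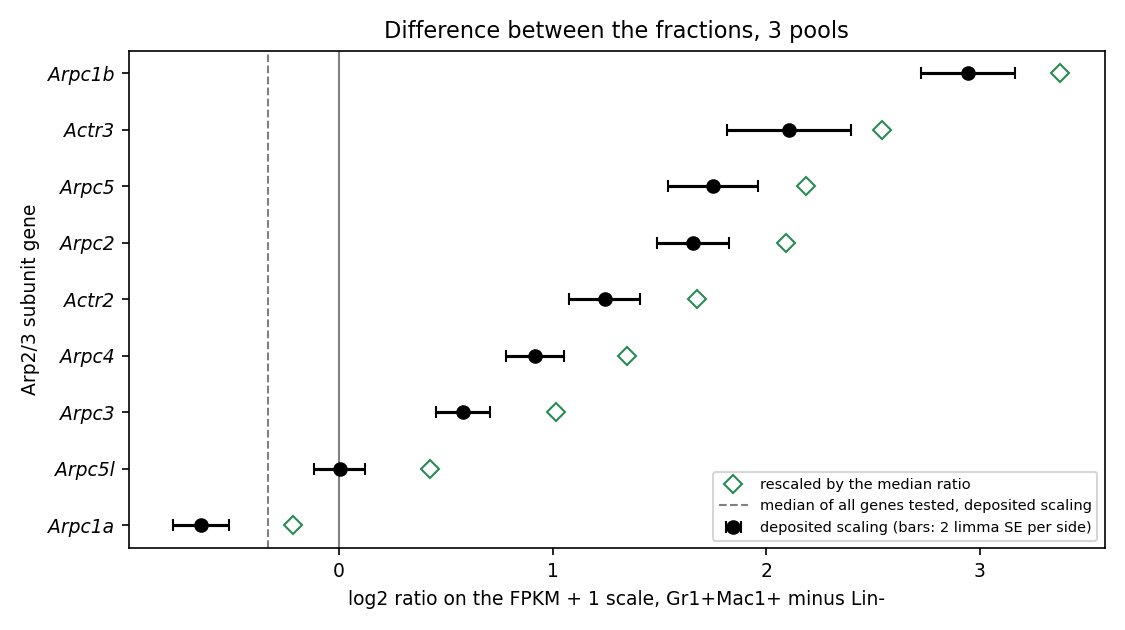
Log2 ratio of each subunit gene between the fractions (Gr1+Mac1+ minus Lin-, FPKM + 1 scale, 3 pools), filled points with 2 limma SE per side, open diamonds after rescaling by the median ratio, dashed line at the median of all genes. Arpc1b leads at 2.94 and Arpc1a is lowest at -0.64; only Arpc5l changes its call with the rescaling.

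The makeup of the ArpC1 position differed between the fractions. FPKM is per length, so the levels of paralogues within a library can be set against each other, and a share within a library does not depend on its scaling. Arpc1b made up 44.5% (WT), 53.1% (Het) and 49.1% (KO) of the summed FPKM of Arpc1a and Arpc1b in Lin- cells, with counting SE of 0.986 to 1.11 percentage points. In Gr1+Mac1+ cells it made up 91.7%, 92.6% and 92.2%, with counting SE of 0.258 to 0.298. In Lin- cells the ratio of Arpc1b to Arpc1a was 0.802 to 1.13, and in the Gr1+Mac1+ fraction Arpc1b was 11.0 to 12.4 times as high as Arpc1a. The mean share was 48.9% ± 4.30 (SD, n = 3) against 92.2% ± 0.444, a difference of 43.3 percentage points with an exact two-sided permutation p = 0.1.

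The ArpC5 position differed as well. Arpc5l made up 27.9%, 26.3% and 28.3% of Arpc5 plus Arpc5l in WT, Het and KO Lin- cells and 9.72%, 10.8% and 9.67% in Gr1+Mac1+ cells. The mean was 27.5% ± 1.07 (SD, n = 3) against 10.1% ± 0.649, a difference of -17.4 percentage points (exact permutation p = 0.1). Arpc5 was the more abundant paralogue in all 6 libraries, by 2.53 to 2.81 times in Lin- and by 8.25 to 9.34 times in Gr1+Mac1+ cells. The third paralogue gene, Actr3b, an alternative Arp3, had an FPKM of at most 0.487 in any library.

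**Figure D3:**
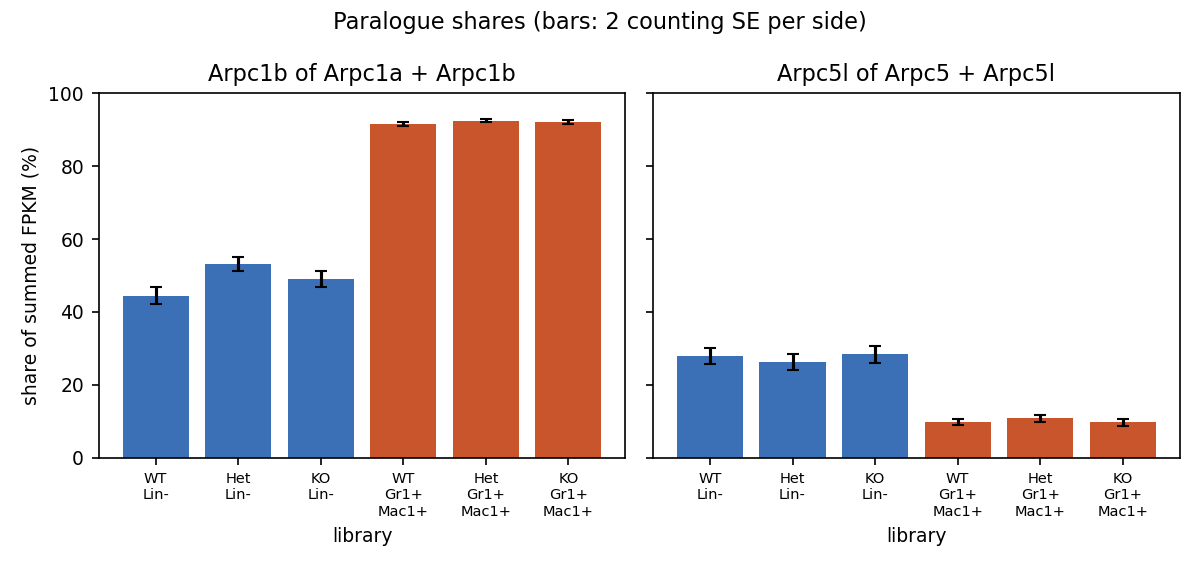
Share (%) of Arpc1b in the summed FPKM of Arpc1a and Arpc1b (left) and of Arpc5l in that of Arpc5 and Arpc5l (right) in each library, with bars of 2 counting SE per side. Arpc1b goes from 44.5% to 53.1% in Lin- to over 91% in Gr1+Mac1+ cells, and Arpc5l from over 26% to at most 10.8%.

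Summed over the 9 genes, the FPKM was 839, 928 and 868 in WT, Het and KO Lin- cells and 2326, 2256 and 2468 in Gr1+Mac1+ cells. The mean sum was 2.68-fold higher in Gr1+Mac1+ cells (exact two-sided permutation p = 0.1 on the log2 sum). These were 3 tests in all, each with a Benjamini-Hochberg adjusted p of 0.1. With 3 libraries against 3, p = 0.1 is the smallest value the design can give, so no exact permutation test here could pass 0.05. Actb, the main cytoplasmic actin, rose alongside, from a mean FPKM of 1073 ± 75.6 (SD, n = 3) to 3408 ± 138 (limma log2 ratio 1.67, adjusted p = 0.000171). The ratio of Actb to the summed subunits was 1.14 to 1.30 in Lin- and 1.40 to 1.55 in Gr1+Mac1+ libraries.

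The subunits were not at equal levels in any library, although the assembled complex holds 1 of each. The highest was 10.1 to 10.5 times the lowest in Lin- and 16.0 to 18.7 times in Gr1+Mac1+ libraries. In all 3 Lin- libraries the order began Arpc3, Arpc2, Actr3, each step larger than the deposited intervals, and ended with Arpc5l. Between them Actr2, Arpc5, Arpc4 and Arpc1a lay so close that neighbours in the order had overlapping intervals in each Lin- library. In Gr1+Mac1+ libraries Arpc1b came first. Its interval overlapped that of Arpc3 in WT but not in Het, and in KO its nearest neighbour was Actr3, which has no usable interval. Arpc2, Arpc5, Actr2, Arpc4, Arpc1a and Arpc5l followed in this order in all 3, without overlap. With paralogues summed, ArpC3 was 2.49 to 2.96 times the median position in Lin- cells and 1.09 to 1.13 times in Gr1+Mac1+ cells. ArpC4 fell furthest below, at 0.613 to 0.673 and 0.326 to 0.338 of the median position. These ratios describe transcripts, not proteins.

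Between genotypes, no subunit reached 2-fold in either fraction. With 1 library per group there is no test. A gene was called by size where it differed at least 2-fold on log2(FPKM + 1), reached FPKM 5 in the library where it was higher, and had intervals that did not overlap and status OK. None of the 9 subunits was called in any of the 6 comparisons. Of all genes 0.23% were called for KO against WT in Lin- cells, 1.78% for Het against WT and 1.64% for KO against Het. In Gr1+Mac1+ cells the shares were 0.192%, 0.18% and 0.18% in the same order. With so few genes called, a count of 0 among 9 is close to the background.

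The members' values moved by little. In KO against WT Lin- cells the log2 ratios of the 9 ran from -0.21 to 0.38, with a median of 0.06 beside -0.00798 for all genes. In KO against WT Gr1+Mac1+ cells they ran from -0.05 to 0.14, with a median of 0.09 beside 0.01. Without the Actr3 value of status FAIL that median was 0.08. The Het and KO comparisons share the WT libraries. Intervals lay apart for 2 of 9 subunits in KO against WT Lin- cells, where 16.4% of all genes did so. They lay apart for 3 of 8 with status OK in KO against WT Gr1+Mac1+ cells, beside 12.9%, and for 4 of 9 in Het against WT Lin- cells, beside 16.4%. In Het against WT Gr1+Mac1+ cells it was 5 of 9, beside 20.3%. For KO against Het it was 4 of 9 in Lin- cells, beside 11.8%, and 6 of 8 in Gr1+Mac1+ cells, beside 22.9%. These intervals narrow with abundance, and the background was not matched for level.

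Arpc1b had the largest genotype difference of the 9. In Lin- cells it was higher than WT by a log2 ratio of 0.65 in Het (counting SE 0.06) and 0.38 in KO (counting SE 0.06), and lower in KO than in Het by 0.27 (log2 ratio -0.27). With 1.5-fold in place of 2-fold, Arpc1b in Het against WT Lin- cells was the only member called, where 3.01% of all genes were. For KO against WT and KO against Het in Lin- cells that rule called 1.03% and 2.89% of genes, and for KO against WT, Het against WT and KO against Het in Gr1+Mac1+ cells 1.39%, 0.877% and 1.35%. The Het library is the one with the neutrophil transcripts and the highest Lin- sums of monocyte, B lineage, megakaryocyte and stromal genes. S100a8, a neutrophil calcium-binding protein, had an FPKM of 2935 there, beside 21.1 (WT) and 26.6 (KO). In KO Lin- cells the monocyte sum was 65.3, beside 45.7 in WT. The progenitor, neutrophil, erythroid and stromal sums were also higher in KO than in WT Lin- cells. Those of the B lineage, megakaryocyte and T and NK cell genes were lower. The part of these cell types in the Arpc1b values of Het and KO was not tested. In Gr1+Mac1+ cells Arpc1b was at 0.17 in Het and 0.06 in KO against WT.

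Actr3 in Lin- cells was higher in Het (0.23, counting SE 0.04) and lower in KO (-0.21, counting SE 0.04) than in WT. The fragments implied by its bounds were 1989 in WT, 3116 in Het and 2129 in KO, so for KO they go the other way. Such numbers are not scaled to library size. Signs over the 9 subunits are given beside the share of all genes with a positive ratio, as a description only, since subunits of a library share its scaling. Against WT, 9 of 9 were positive in Het Lin- cells (47.4% of all genes) and 7 of 9 in KO Lin- cells (48.1%). In Gr1+Mac1+ cells 2 of 9 were positive in Het (49.1%) and 8 of 9 in KO (53.2%). The 2 positive in Het were Arpc1b at 0.17 and Arpc5l at 0.02, and the lowest were Arpc5 at -0.15 and Actr2 at -0.14. For KO against Het, 1 of 9 was positive in Lin- cells (50.3%) and 7 of 9 in Gr1+Mac1+ cells (52.4%). Both KO Gr1+Mac1+ counts include the Actr3 value of status FAIL, while the shares of all genes cover status OK only. Arpc1a differed between genotypes by at most 0.16 in any comparison and Arpc5l by at most 0.13. The Xist FPKM, 54.2 in WT and 34.9 to 38.7 in Het and KO Lin- cells, and that of the Y-linked Eif2s3y, 9.05 beside 17.6 and 17.96, also differed between the pools. The part of the sex of the mice in these values was not tested.

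**Figure D4:**
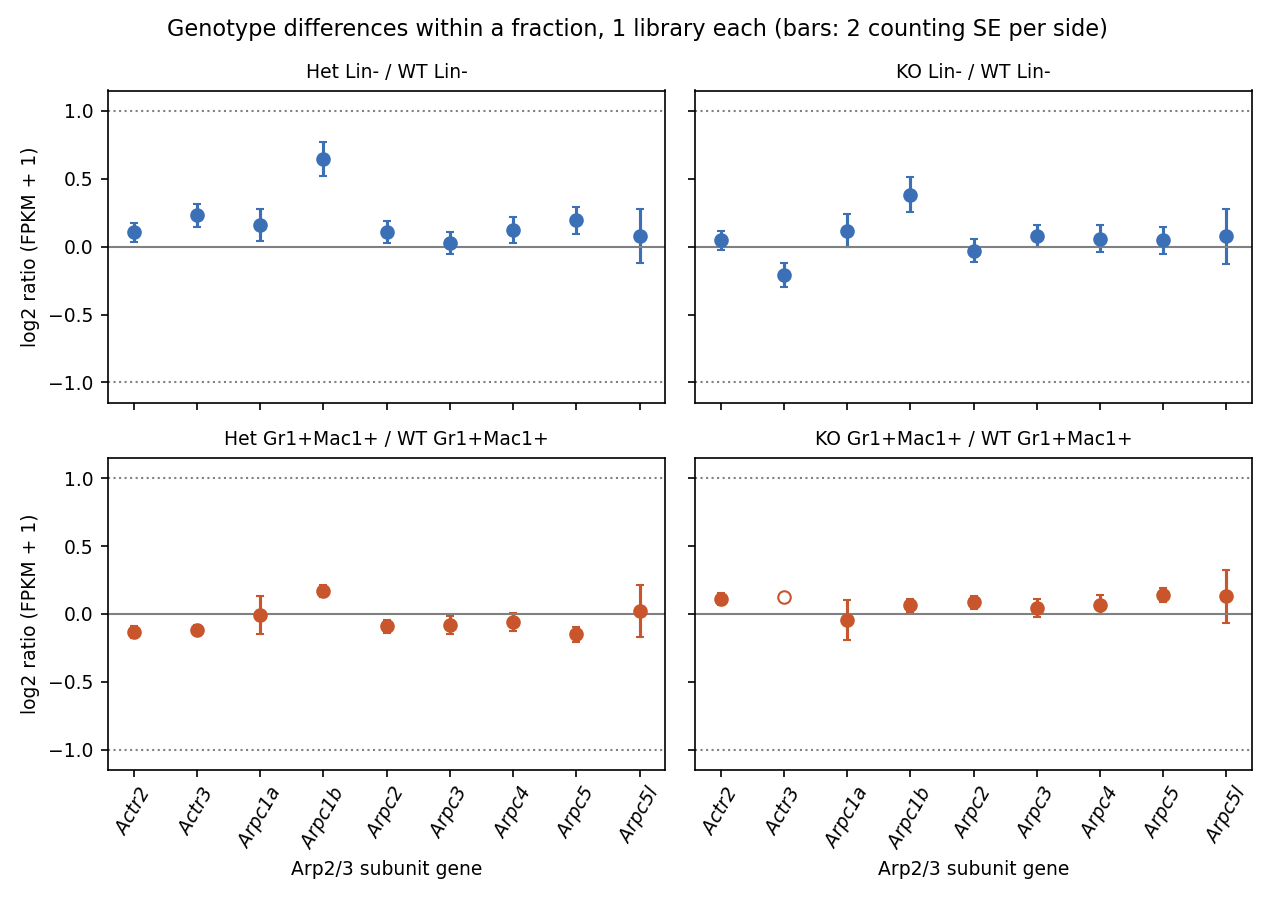
Log2 ratio (FPKM + 1 scale) of Het and KO to WT for each subunit gene, Lin- above and Gr1+Mac1+ below, 1 library each, with 2 counting SE per side; dotted lines mark 2-fold and the open circle the Actr3 value of status FAIL. All points lie inside the dotted lines, and Arpc1b in Lin- cells is highest, at 0.65 and 0.38.

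The genes that switch Arp2/3 on, off or feed it were mostly higher in Gr1+Mac1+ cells as well. Counts below are from the same limma fit, to be read against 30.3% of all genes higher in Gr1+Mac1+ and 51.5% in Lin- cells. The WASP and WAVE activator list, which also holds cortactin (Cttn) and its relative Hcls1, had 18 tested genes (20 listed). Of these, 10 were higher in Gr1+Mac1+ and 5 in Lin- cells (13 and 3 after rescaling), with a median log2 ratio of 0.68. Hcls1, the blood-cell relative of cortactin, was at 2.45 and Wipf1, the partner that stabilises WASP, at 2.31. Cttn, cortactin itself, was at -3.14 and Nckap1, a subunit of the WAVE complex, at -2.98. The list of branch inhibitors and removers, which also holds filament-disassembling proteins, had 11 tested genes (12 listed). Of these, 7 were higher in Gr1+Mac1+ and 2 in Lin- cells (8 and 1 after rescaling), with a median of 0.88. Coro1a, the leukocyte coronin, went from a mean FPKM of 68.0 ± 22.6 (SD, n = 3) to 976 ± 26.2, a log2 ratio of 3.87. The actin depolymerising factor Dstn was at 3.02, Gmfg, which removes branches, at 2.83 and Coro7 at 1.29.

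Of 13 upstream GTPases, exchange factors and adaptors, 10 were higher in Gr1+Mac1+ and 2 in Lin- cells, with a median of 1.22 (11 and 2 after rescaling). Rac2, the Rac of blood cells, was at 2.91, its exchange factor Dock2 at 2.08, the Dock partner Elmo1 at 1.98 and Dock8, which acts on Cdc42, at 1.68. All 4 tested actins (6 listed) were higher in Gr1+Mac1+ cells under both scalings, Acta2 at 2.42, Actg1 at 1.70, Actb at 1.67 and Acta1 at 1.33. Of 9 tested formins (14 listed), 5 were higher in Gr1+Mac1+ and 2 in Lin- cells (median 0.89; 6 and 2 after rescaling). Fmnl1 was at 2.87, Fmnl2 at 2.74, Fmnl3 at 2.62 and Diap2 at 2.10. Diap1, the gene by which the pools differ, was at 0.22 (limma adjusted p = 0.447). Its FPKM was higher in Gr1+Mac1+ cells in WT (57.1 against 36.0) and Het (34.1 against 24.2). In KO it was lower there (4.07 against 6.07).

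For the other actin-related proteins the median lay near that of all genes, while single genes lay further off. The 9 listed include Actr3b, which had a mean FPKM under 1 and was not tested. Of 7 tested, 5 were higher in Lin- cells and 0 in Gr1+Mac1+ cells, with a median of -0.37 beside -0.33 for all genes. After rescaling 2 passed the threshold as higher in Lin- cells, Actl6a and Actr1b, and 0 in Gr1+Mac1+ cells. The negative sign then held for 4 of the 7, with Actr1a at 0.18, Actr10 at 0.15 and Actr8 at 0.05. Actl6a, a chromatin remodelling subunit, was at -1.54, Actr1b of dynactin at -0.75, and the nuclear Actr5 and Actr8 at -0.48 and -0.36. Among the genes of these lists, Diap1 alone passed the size rule between genotypes, lower in KO than in WT and Het in both fractions.

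**Figure D5:**
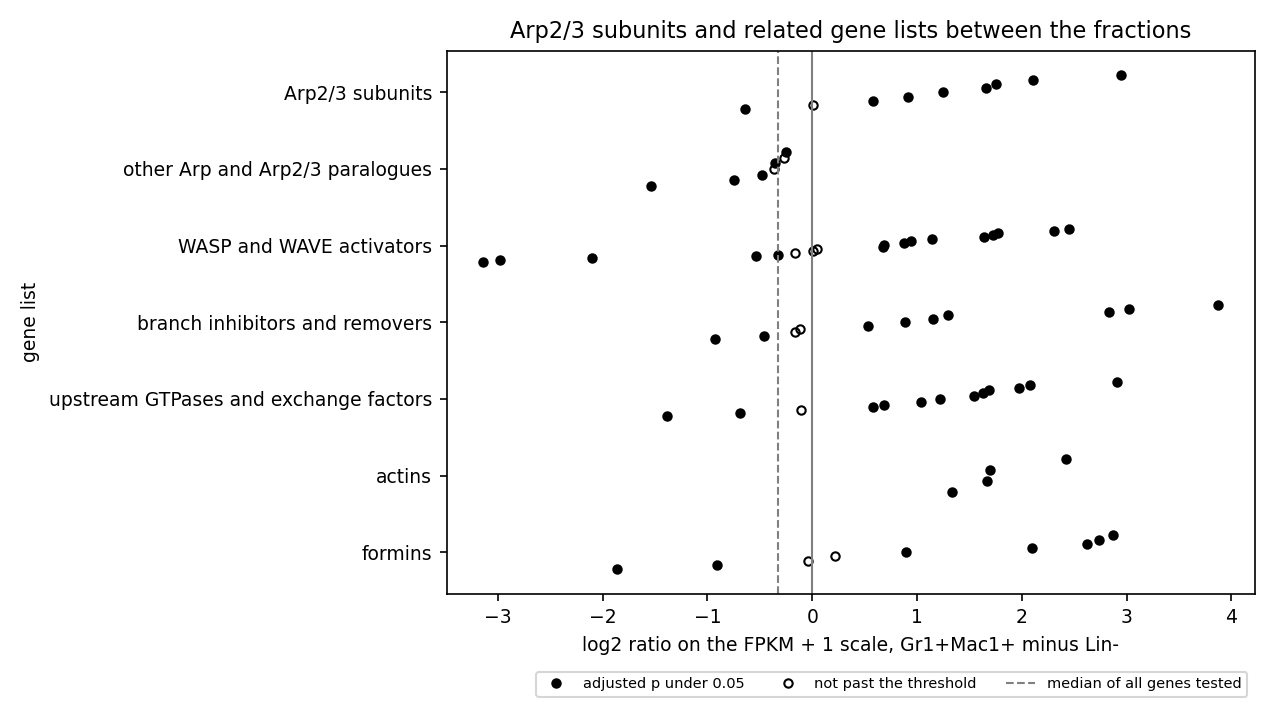
Log2 ratio between the fractions (Gr1+Mac1+ minus Lin-, FPKM + 1 scale) for each tested gene of the subunits and the related lists; filled points passed the limma threshold, and the dashed line is the median of all genes. The subunits lie between -0.64 and 2.94, and the other actin-related proteins all lie below 0 on the deposited scale, 3 of them above 0 after rescaling.

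Genes with the profile most like that of each paralogue were found by the root mean square distance of centred log2(FPKM + 1) values over the 6 libraries, among 6045 other genes with mean FPKM of at least 10. Among the nearest to Arpc1b were Inpp4a (distance 0.06) and Rac2 (0.07). Rac2 stood at 38.1, 59.1 and 45.7 in WT, Het and KO Lin- cells, the order Het, KO, WT that Arpc1b had. It was picked for likeness over these same values, so a shared order follows from the choice. Coro1a, Gmfg and Hcls1 also had this order in Lin- cells, while Dstn did not. Nearest to Arpc1a were Atad2, Srsf4 and Cox6c (0.03 each). Nearest to Arpc5 were Phyh, Ptgr1 and Crlf2 (0.04 each), and nearest to Arpc5l were Prkar1a (0.02), Hipk3 (0.03) and Poldip3 (0.03). With 6 libraries in 2 fractions, such likeness rests mostly on the difference between the fractions.

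The upstream sequences of the neighbouring Arpc1 genes are shown because their levels moved in opposite directions. They hold the 250 bases before the RefSeq start on GRCm38.p6, plus strand, 5′ to 3′, with capitals at each match to GGGCGG on either strand, the core of the GC box.
Arpc1a, chr5:145083619-145083868: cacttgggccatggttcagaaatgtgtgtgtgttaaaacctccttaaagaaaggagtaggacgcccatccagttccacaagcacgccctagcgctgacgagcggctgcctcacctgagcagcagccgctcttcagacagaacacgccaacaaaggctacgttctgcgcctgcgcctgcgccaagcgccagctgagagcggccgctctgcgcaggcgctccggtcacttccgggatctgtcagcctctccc
Arpc1b, chr5:145114006-145114255: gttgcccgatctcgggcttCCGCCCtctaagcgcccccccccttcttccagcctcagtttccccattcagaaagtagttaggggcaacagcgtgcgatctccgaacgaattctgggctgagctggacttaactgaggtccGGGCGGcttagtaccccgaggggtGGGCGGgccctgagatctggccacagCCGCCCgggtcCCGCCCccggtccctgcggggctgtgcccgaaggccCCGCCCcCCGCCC
Arpc1b held 7 matches and Arpc1a 0. GGGCGG was present at least once in 32.7% of 32851 promoters of that length, and the share with 7 or more matches was not counted. Of the 8 members with a promoter entry, Arpc5 held 3 matches, Actr2 and Arpc2 2 each and Actr3 1, while Arpc3 and Arpc4 held 0. CCAAT (33.8% of promoters) was found in Actr2 and Arpc5, the CArG box (1.47%) in Arpc4, and GAGGAA (23.3%) in none of the 8. No overlap between motifs was counted separately, and a match is a description of letters only.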

How the data were processed

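RNA-seq values of 6 mouse bone marrow libraries were used. The authors deposited FPKM per gene locus with interval bounds and a status, per the file headers. TopHat2 2.0.7, Cufflinks 2.0.2 and the mm10 build are named in the submitters' processing notes; annotation and settings: not given in the sources used here. Locus starts were read as 0-based (12238 matched a GENCODE M21 transcript start after adding 1, 1154 as they were); coordinates are 1-based. Reading the bounds as 2 SE made 60.9% to 63.3% of implied fragment numbers under 50 whole (tolerance 0.05), so this reading was used.

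The fraction comparison used limma 3.58.1 under R 4.3.3 (trend, Benjamini-Hochberg), tested on simulated data, for genes with mean FPKM of at least 1, pseudocount 1. The pool is a block: per the labels' protocols each pool supplied both fractions. Deviations of the fractions correlated within pools by 0.10 (WT), -0.07 (Het) and -0.03 (KO). The fold is understated for low genes. Single values used exact permutation over 20 splits. No 2 libraries were identical. Of 83 pathway and 68 marker symbols, 83 and 67 matched, 2 and 2 by another symbol. Copies were sought with BLAST+ 2.17.0 and sequences aligned with Biopython 1.88. Tables were handled in pandas 2.3.3 and numpy 2.4.6, and plots drawn in matplotlib 3.10.9 (Python 3.11.15).

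All 9 members are named, and of each list up to 4 genes past the threshold with the largest log2 ratio, any gene past the size rule, Actb, Actg1, Diap1 and Actr3b, and the 3 nearest profiles of each paralogue, of which 1 is not reported here. Members, lists and rules were chosen with earlier results of these data known. Alternatives were other pseudocounts, level filters, rescaling, no block, 1 pool left out, and for genotypes 1.5-fold or no interval criterion.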

Additional observations from a re-analysis of the deposited data

Results flagged for a closer look

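In 5 cases a subunit differed in opposite directions in Lin- and Gr1+Mac1+ cells under the same genotype comparison, with deposited intervals apart in both; with 1 library per group the difference between the fractions was not tested. These 5 come from 25 cases with status OK over 3 comparisons. They were 3 of 9 subunits for Het against WT, 2 of 8 for KO against Het and 0 of 8 for KO against WT, where 3.02%, 3% and 1.83% of all genes did the same. Intervals narrow with abundance, and this background was not matched for level. For Het against WT, Actr2 had log2 ratios of 0.11 (Lin-) and -0.14 (Gr1+Mac1+), Actr3 one of 0.23 and -0.12, and Arpc5 one of 0.19 and -0.15. For KO against Het, Arpc2 stood at -0.14 (Lin-) and 0.18 (Gr1+Mac1+), and Arpc5 at -0.15 and 0.29. All 5 involve the Het libraries, which both comparisons share and through which Arpc5 is counted under each. The Het Lin- library is the one with neutrophil transcripts (summed FPKM 8023, beside 69.3 and 83.4). It also had the highest Lin- sums of monocyte, B lineage, megakaryocyte and stromal genes.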

How the results depend on the processing

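The split of 7 subunits higher in Gr1+Mac1+ and 1 in Lin- cells held with pseudocounts of 0.1 and 5, no filter, mean FPKM of at least 5, no replicate block and each pool left out (7 and 1 throughout); after rescaling by the median ratio it was 8 and 1. Arpc5l changed sides of 0 with the pool left out, from -0.0245 without KO to 0.0308 without Het, and rescaling took it to 0.43. For the other lists together, 36 higher in Gr1+Mac1+ and 16 in Lin- cells became 42 and 10 after rescaling, and 36 and 18 with no replicate block. The shares kept their direction: for Arpc1b 41.3 to 45.2 percentage points and for Arpc5l -18.4 to -16.8 with 1 pool left out; permutation within pools (replicate block) gave 43.3 and -17.4, each at exact p = 0.25, the smallest possible there. As log2 differences they were 3.59 and -1.75. The log2 summed level went from 1.42 to 1.38 to 1.49 with 1 pool left out and 1.86 after rescaling. Between genotypes, 0 subunits past the size rule became 1 at 1.5-fold and stayed 0 in the other settings. With 1 library per genotype and fraction, depth cannot stand in for replicates.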

Other observations

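Partners of Arp2/3 that exist as paralogue pairs were looked at in the same way as the subunits. These 6 pairs were chosen after their values were seen, and no test was made. Nckap1l (Hem1) made up 69.7% ± 2.28 (SD, n = 3) of Nckap1 plus Nckap1l in Lin- cells and 99.1% ± 0.263 in Gr1+Mac1+ cells. Hcls1 made up 64.6% ± 2.46 of Cttn plus Hcls1 in Lin- cells and 99.3% ± 0.286 in Gr1+Mac1+ cells. Gmfg, which removes branches, went from 55.7% ± 5.52 of Gmfb plus Gmfg to 92.8% ± 0.259, and Rac2 from 36.5% ± 4.67 of Rac1 plus Rac2 to 73.0% ± 0.934. For Was, the activator of blood cells, beside Wasl the share was already 89.3% ± 0.865 in Lin- cells and 96.2% ± 0.358 in Gr1+Mac1+ cells. Cyfip2 beside Cyfip1 went from 77.0% ± 0.984 (Lin-) to 84.0% ± 1.28 (Gr1+Mac1+). In each of the 6 pairs the 3 Gr1+Mac1+ libraries lay above the 3 Lin- libraries.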
